A study of Mus musculus with 9 samples.

Results

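The hemoglobin genes described here are the alpha-globin genes Hba-a1 and Hba-a2, the beta-globin genes Hbb-bs and Hbb-bt, and Alas2, the erythroid form of 5-aminolevulinate synthase. They were chosen by symbol, are 5 of 52550 gene IDs in the tables, and were read against the neutrophil genes S100a8 and S100a9. The tissue was cortex from male C57BL/6N mice aged 9 to 12 weeks. In the knockdown group (replicates 2, 3 and 4), locked nucleic acid antisense oligos against the enhancer RNA eRNA_06347 were given into the lateral ventricles. The control oligo group (replicates 1, 2 and 3) received a negative control oligo by the same route. Both of these groups then had the middle cerebral artery closed with a filament for 1 h (MCAO, a model of ischemic stroke) and reopened for 6 h, and the infarcted side of the cortex was taken. The sham group (replicates 1, 2 and 3) had the neck incision but no filament, and no oligo is named for it in the labels' treatment field. The laboratory reused data it had generated before for the sham libraries. Stroke, oligo injection and data set therefore cannot be told apart in any comparison with sham. Whether the animals were perfused before the tissue was taken is not given in the sources used here.

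Hemoglobin is a tetramer of alpha-like and beta-like chains, each holding a heme, and is made almost only in the red cell lineage. Alas2 carries out the first and rate-limiting step of heme synthesis in those cells. Young circulating red cells keep globin mRNA after they lose the nucleus, so globin RNA in a brain sample is commonly used as a sign of blood in the tissue, although some neurons and other brain cells are also known to express globins. S100a8 and S100a9 encode the subunits of calprotectin, an abundant protein of neutrophils, which circulate in blood and also enter injured tissue.

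The copies of each chain are close to identical, which bears on every value below. Hba-a1 (chr11:32283511-32284465, + strand) and Hba-a2 (chr11:32296489-32297298, + strand) have coding sequences of 426 bases that differ at 1 base, C381T. Hbb-bs (chr7:103826534-103828096, - strand) and Hbb-bt (chr7:103812524-103813996, - strand) have coding sequences of 441 bases that differ at 1 base, C417T. Positions count from the A of the start codon, coordinates are those of the deposited tables (GRCm38/mm10), and the sequences are from GENCODE M21. The 31 bases around each difference, with the differing base in capitals, show how little separates the copies.
Hba-a1: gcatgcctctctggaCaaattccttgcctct
Hba-a2: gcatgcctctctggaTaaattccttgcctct
Hbb-bs: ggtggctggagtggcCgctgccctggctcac
Hbb-bt: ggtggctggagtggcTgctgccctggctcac
Of all 51-base windows of the main Hba-a2 transcript, 86.7% also occur in Hba-a1, and of all 141-base windows 66.4% do. For Hba-a1 these shares were 67.3% and 49.2%, for Hbb-bs 65.7% and 59.4%, and for Hbb-bt 58.2% and 51.5%. The split of reads between the copies of a chain is therefore uncertain, while the sum of the copies is less affected. Alas2 lies apart at chrX:150547375-150570638 on the + strand.

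The 120 bases before the RefSeq start sites (GRCm38.p6, 5′ to 3′ on the gene's strand) are printed because the 4 globins had the same order of levels over the MCAO libraries, described further down. Capitals mark the GATA motif (reverse complement TATC), the CACCC motif (reverse complement GGGTG), the CCAAT box (reverse complement ATTGG) and the TATAA motif of a TATA box (reverse complement TTATA), searched on both strands with overlaps allowed.
Hba-a1, chr11:32283552-32283671, + strand: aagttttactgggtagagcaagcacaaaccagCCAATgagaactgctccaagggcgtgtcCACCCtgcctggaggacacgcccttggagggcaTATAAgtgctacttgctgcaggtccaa
Hbb-bs, chr7:103827929-103828048, - strand: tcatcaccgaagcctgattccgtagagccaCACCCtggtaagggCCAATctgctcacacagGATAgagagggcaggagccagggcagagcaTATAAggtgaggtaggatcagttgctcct
Hbb-bt, chr7:103813924-103814043, - strand: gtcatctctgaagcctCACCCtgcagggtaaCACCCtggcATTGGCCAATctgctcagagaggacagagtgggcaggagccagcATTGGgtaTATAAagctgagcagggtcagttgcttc
Alas2, chrX:150547297-150547416, + strand: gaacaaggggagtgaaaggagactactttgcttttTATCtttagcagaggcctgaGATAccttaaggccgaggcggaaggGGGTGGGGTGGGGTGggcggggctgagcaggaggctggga
The Hba-a2 window was the same as that of Hba-a1 over all 120 bases once shifted by 3 bases, and the windows of Hbb-bs and Hbb-bt matched at 89 of 120 bases (74.2%). CACCC was found in 5 of 5 windows, against 31.3% of 27025 RefSeq promoter windows of this length. CCAAT was found in 4 of 5, against 22.1% of all windows, and TATAA in 4 of 5, against 12.4%. Both were missing from the Alas2 window. GATA, the core of the site bound by erythroid GATA factors, was found in 2 of 5, against 29.9%. In Hbb-bt a reversed CCAAT adjoins a forward one, and the 3 reversed CACCC of Alas2 directly follow each other. A match is a description of letters and not a binding site. Each of the 5 members has a deposited transcript that starts upstream of the RefSeq site. The whole Hba-a1 window lies within the span of its main transcript, and the whole Hbb-bs window within that of a minor transcript. For Hba-a2, Hbb-bt and Alas2, parts of the windows lie within deposited transcripts.

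The tables give TPM, a share of all transcripts per unit of length scaled to a fixed total, so levels can be compared between genes and between libraries of the same makeup. Aligned reads, estimated from coverage, were 34.9 to 38.4 M (M, mega) per knockdown library, 35.5 to 39.2 M per control oligo library and 58.4 to 62.4 M per sham library, with reads of 141 bases in MCAO and 51 bases in sham libraries. Small RNAs took 0.705 to 0.862% of TPM in MCAO libraries and 62.0 to 66.4% in sham libraries. Nuclear protein-coding genes took 54.7 to 63.9% in MCAO and 30.6 to 34.2% in sham libraries, and against sham the log2 change of the median gene was 0.61 for knockdown and 0.56 for control oligo. Markers of neurons, astrocytes, oligodendrocytes and microglia were present in all 9 libraries. Knockdown replicate 4 stood apart from the other 8. Its mean correlation with its own group was 0.939, against 0.960 to 0.986 for the others, its 18 neutrophil markers summed to 1652 TPM against at most 379 elsewhere, and its endothelial markers to 585 TPM against at most 295. Knockdown replicate 3, which had the highest globin sum, differed in choroid plexus markers. Ttr was at 56.7 TPM in that library against at most 1.81 elsewhere, and the choroid plexus list summed to 61.5 TPM against at most 16.5. Whether this bears on its globin values was not tested.

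Alpha globin differed far more within the stroke groups than between them. Hba-a1 stood at 515, 763 and 65.4 TPM in knockdown replicates 2, 3 and 4, at 41.2, 197 and 548 TPM in control oligo replicates 1, 2 and 3, and at 118, 122 and 55.5 TPM in sham replicates 1, 2 and 3. Its highest knockdown library was 11.7 times its lowest, and the same ratio was 13.3 in control oligo and 2.19 in sham. The knockdown and control oligo values overlapped, and the MCAO values surrounded those of sham, with 4 of 6 above the highest sham library and 1 below the lowest. Hba-a2 stood at 607, 915 and 75.7 TPM in knockdown, 49.6, 240 and 660 TPM in control oligo, and 139, 141 and 66.4 TPM in sham libraries. It ranked the libraries as Hba-a1 did, with knockdown replicate 3 highest and control oligo replicate 1 lowest.

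Beta globin followed the same order. Hbb-bs, the member with the highest level in 9 of 9 libraries, stood at 639, 944 and 94.3 TPM in knockdown, 49.8, 288 and 713 TPM in control oligo, and 188, 235 and 96.3 TPM in sham libraries. Here 4 of 6 MCAO libraries were above the sham range and 2 below it. Hbb-bt, the globin of lowest level, stood at 226, 328 and 27.6 TPM in knockdown, 14.9, 107 and 239 TPM in control oligo, and 80.8, 110 and 43.5 TPM in sham libraries. Its highest control oligo library was 16.1 times its lowest, the widest ratio within a group of the 4 globins.

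Alas2 was present at a far lower level. It stood at 5.83, 10.4 and 1.36 TPM in knockdown, 0.307, 2.92 and 4.72 TPM in control oligo, and 4.91, 5.73 and 1.84 TPM in sham libraries, and all groups overlapped. The lowest value rests on about 11 reads and the others on 35 to 397. Knockdown replicate 3 was again highest and control oligo replicate 1 again lowest, but knockdown replicate 2 stood above control oligo replicate 3, the reverse of the globins.

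In all 9 libraries the order of levels in TPM was Hbb-bs, Hba-a2, Hba-a1, Hbb-bt and Alas2. The order of the alpha copies depends on transcript length, 699 bases for the main Hba-a1 transcript and 554 for that of Hba-a2. In estimated reads Hba-a1 was above Hba-a2 in each library, for example at 10120 against 9638 in knockdown replicate 3. Between neighbouring globins the gap between group means was smaller than the larger of their SDs, with knockdown means of 559 ± 430, 532 ± 425, 448 ± 354 and 194 ± 153 TPM (SD, n = 3). In control oligo they were 350 ± 336, 317 ± 312, 262 ± 260 and 120 ± 113 TPM, and in sham 173 ± 70.3, 116 ± 42.6, 98.3 ± 37.1 and 78.2 ± 33.5 TPM. Alas2, at 5.86 ± 4.52, 2.65 ± 2.22 and 4.16 ± 2.05 TPM in knockdown, control oligo and sham, was apart from all of them. These SDs are between libraries, over which the globins varied together, so they do not measure how certain the order within a library is. In bulk tissue, fewer red cells and less globin RNA per cell cannot be told apart.

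**Figure D1:**
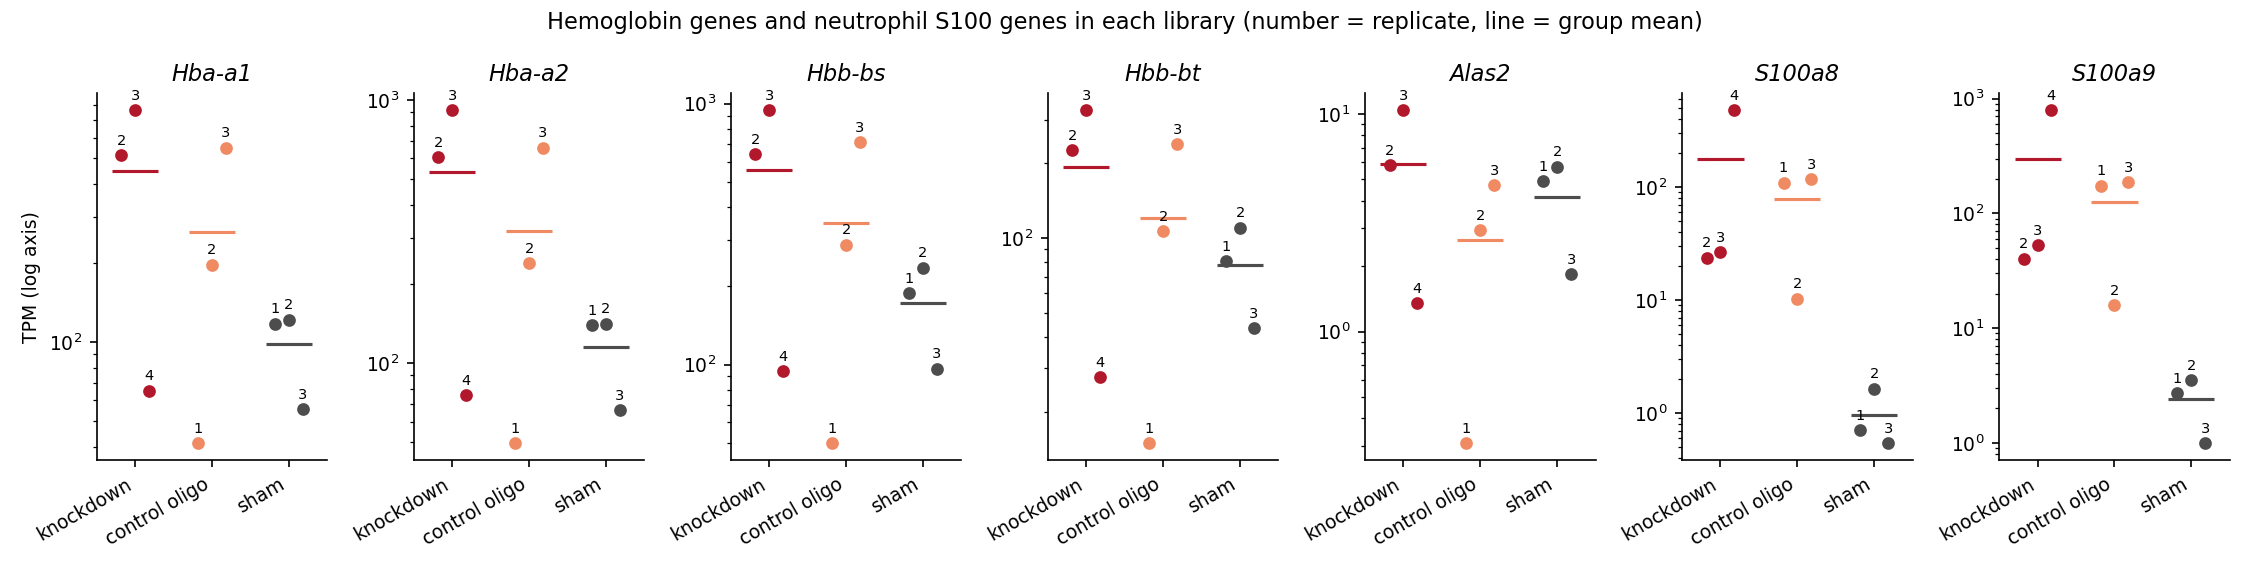
TPM on log axes (y) of the 5 hemoglobin genes and of S100a8 and S100a9 in the knockdown, control oligo and sham libraries; each point is 1 library numbered by its replicate, and lines are group means. Knockdown replicate 4 and control oligo replicate 1 are lowest in their groups for all 5 hemoglobin genes, while knockdown replicate 4 is highest for both S100 genes at 480 and 793 TPM.

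The members varied together. Over the 6 MCAO libraries the 4 globins ranked the libraries in 1 order, with knockdown replicate 3 first, then control oligo 3, knockdown 2, control oligo 2, knockdown 4 and control oligo 1. In sham all 5 genes ranked replicate 2 above 1 above 3. As a description over the 6 MCAO libraries, Pearson's r of log2(TPM + 1) was 0.9999 between Hba-a1 and Hba-a2, which share reads, 0.999 between Hbb-bs and Hbb-bt, 0.996 to 0.998 between alpha and beta genes, which sit on different chromosomes, and 0.971 to 0.974 between Alas2 and the globins. Over all 9 libraries Alas2 had an r of 0.829 to 0.934 with the globins.

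The spread of these genes within groups was among the widest of the genes kept. The SD of log2(TPM + 1) was 1.77 to 1.92 for the globins and 1.16 for Alas2 in knockdown, against a median of 0.26 over 17080 genes. In control oligo it was 1.86 to 2.01 for the globins and 1.11 for Alas2, against a median of 0.26, and 18 genes had a larger SD than Hbb-bt. In sham it was 0.62 to 0.67 for the 5 genes, against a median of 0.14, and 237 to 310 genes had a larger SD. The neutrophil genes were as uneven in the stroke groups, with SDs of 2.43 and 2.36 for S100a8 and S100a9 in knockdown, 1.93 and 1.98 in control oligo, and 0.41 and 0.62 in sham.

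**Figure D2:**
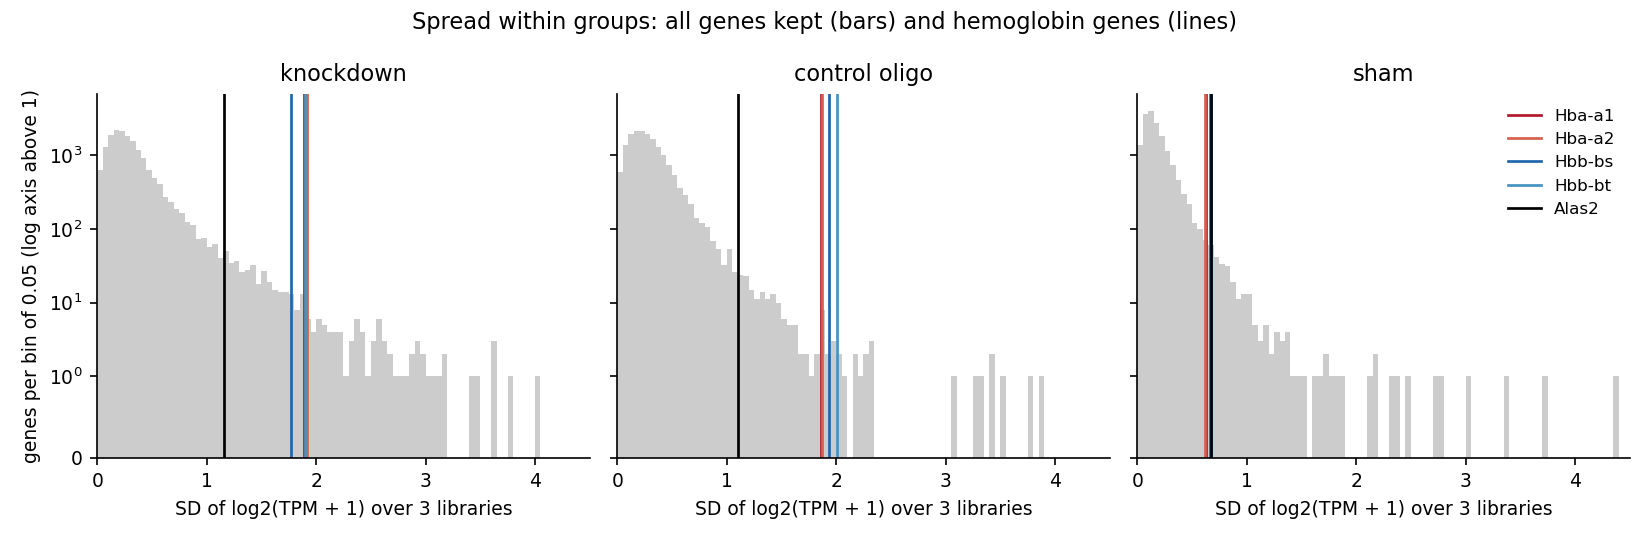
SD of log2(TPM + 1) over the 3 libraries of a group (x) for all 17080 genes kept, as the number of genes per bin (y, log axis above 1), with the hemoglobin genes as lines. The globin lines lie at 1.77 to 1.92 in knockdown, 1.86 to 2.01 in control oligo and 0.62 to 0.67 in sham, in the far tail of each distribution.

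Summed over the 4 genes, globins reached 1986, 2949 and 263 TPM in knockdown replicates 2, 3 and 4, 156, 832 and 2160 TPM in control oligo replicates 1, 2 and 3, and 525, 608 and 262 TPM in sham replicates 1, 2 and 3. The group means were 1733 ± 1361 TPM in knockdown, 1049 ± 1020 TPM in control oligo and 465 ± 181 TPM in sham (SD, n = 3). These means follow single libraries, since leaving out knockdown replicate 4 gave a knockdown mean of 2468 TPM and leaving out control oligo replicate 3 gave a control oligo mean of 494 TPM. Of the 6 MCAO libraries, 4 lay above the sham range, 1 within it and 1 below. When TPM was computed over nuclear protein-coding genes alone, 3 lay above, 1 within and 2 below, with sums of 3108, 4673 and 461 in knockdown, 272, 1365 and 3951 in control oligo, and 1548, 1776 and 855 in sham.

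The neutrophil genes behaved differently. S100a8 stood at 23.7, 26.5 and 480 TPM in knockdown, 109, 10.3 and 118 TPM in control oligo, and 0.701, 1.64 and 0.538 TPM in sham libraries. S100a9 stood at 40.2, 52.7 and 793 TPM in knockdown, 174, 15.9 and 187 TPM in control oligo, and 2.72, 3.53 and 0.987 TPM in sham libraries. Both were above the sham range in 6 of 6 MCAO libraries, and the sham values rest on 13 to 79 reads. The share of all genes that lay above their sham range is not given here. Of all genes, 52.6% were called higher in control oligo than in sham, and 52.7% in knockdown than in sham. limma called S100a8 higher in control oligo than in sham (log2 change 4.80 ± 0.79 SE, adjusted p = 0.000917) and in knockdown than in sham (5.18 ± 1.03, adjusted p = 0.00300). S100a9 was called higher as well, by 4.67 ± 0.83 (limma adjusted p = 0.00134) in control oligo and by 5.23 ± 1.02 (limma adjusted p = 0.00273) in knockdown, and both genes stayed called in 13 of 13 alternatives for each of these comparisons. Without knockdown replicate 4 the knockdown changes were 3.77 for S100a8 (limma adjusted p = 1.25e-05) and 3.87 for S100a9 (limma adjusted p = 3.75e-05), where 57.5% of all genes were called higher.

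Set against S100a8 + S100a9, the globin sum was 31.1, 37.2 and 0.206 times as large in knockdown replicates 2, 3 and 4, 0.549, 31.7 and 7.09 times in control oligo replicates 1, 2 and 3, and 154, 118 and 172 times in sham replicates 1, 2 and 3. The ratio, which does not depend on the scaling of a library, was lower in each MCAO library than in each sham library. The ratio is given as a description, without a test. For each stroke group alone against sham, with 3 against 3 libraries, an exact permutation test could not go below p = 0.1. Among MCAO libraries the lowest globin levels went with high S100 levels in knockdown replicate 4 and control oligo replicate 1, but control oligo replicate 3 was high in both and control oligo replicate 2 had the lowest S100 sum, 26.2 TPM, with an intermediate globin sum.

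**Figure D3:**
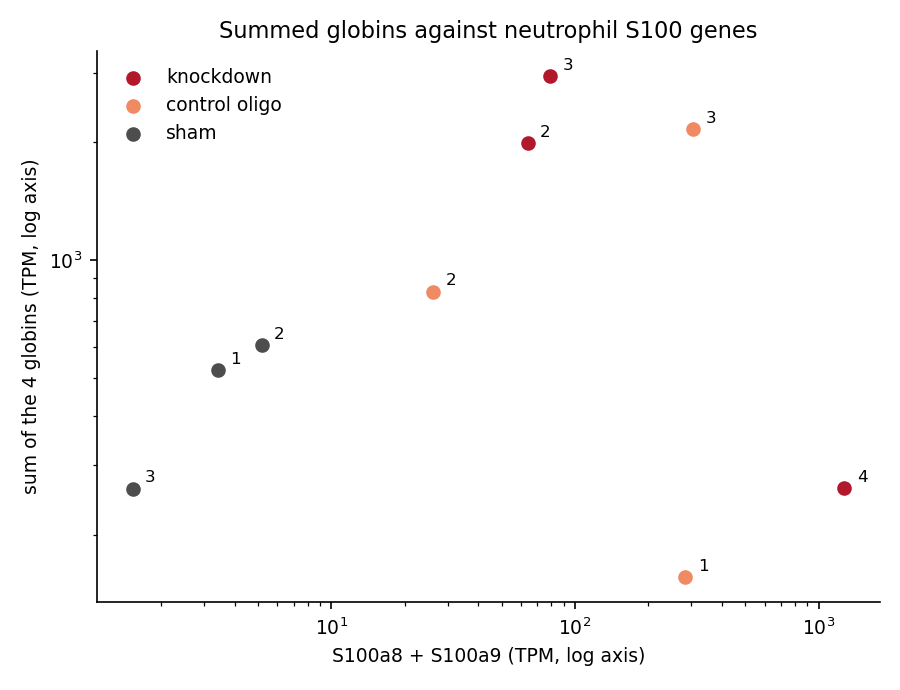
Sum of the 4 globins (y, TPM, log axis) against S100a8 + S100a9 (x, TPM, log axis) in each of the 9 libraries, numbered by replicate. Sham libraries lie at 1.53 to 5.17 TPM of S100 genes, and MCAO libraries at 26.2 to 1274 TPM with globin sums on both sides of the sham range.

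Over the 6 MCAO libraries the members and the neutrophil genes did not show a relation that passed a test. Pearson's r of the 5 members with S100a8 and S100a9 was -0.57 to -0.49 in 10 relations, and the adjusted p of the exact permutation test (two-sided, 720 pairings) was 0.322 for each. Spearman's rho was -0.2 for the globins and -0.371 for Alas2, with an adjusted exact permutation p of 0.714 for each. Without knockdown replicate 4 and control oligo replicate 2, the libraries farthest from the median of the S100 genes, r was -0.69 to -0.55 over 4 libraries. The relation was not computed within knockdown or within control oligo alone, which have 3 libraries each.

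Knockdown was compared with control oligo to ask whether lowering eRNA_06347 changes the stroke cortex. The level of eRNA_06347 itself was not analysed here, so the knockdown rests on the labels. No hemoglobin gene passed. limma called 0 of 5 members at an adjusted p under 0.05, and 0 of 5 at an unadjusted p under 0.05, where 0.0117% of the 17080 genes tested were called (2 genes) and 321 had an unadjusted p under 0.05. The log2 changes were 0.84 ± 1.19 (SE) for Hba-a1, 0.80 ± 1.20 for Hba-a2, 0.82 ± 1.18 for Hbb-bs, 0.79 ± 1.24 for Hbb-bt and 0.88 ± 0.73 for Alas2, with a limma adjusted p of 1 for each. The 95% interval of Hba-a1 ran from -2.02 to 3.69 and that of Alas2 from -0.87 to 2.64, so changes of several fold in either direction lie within the intervals of the globins. Direction rested on 1 library: without control oligo replicate 1 the globin changes were -0.32 to -0.15, and without knockdown replicate 4 they were 1.83 to 1.92.

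Control oligo was compared with sham to see how cortex after a control oligo injection and stroke differs from cortex without occlusion. Again limma called 0 of 5 members, also at an unadjusted p under 0.05, while 65.4% of all genes were called (52.6% higher and 12.8% lower). Alpha globin changes were 0.83 ± 0.79 (SE, limma adjusted p = 0.374) for Hba-a1 and 0.86 ± 0.79 (limma adjusted p = 0.355) for Hba-a2. Hbb-bs gave 0.43 ± 0.82 (limma adjusted p = 0.662) and Hbb-bt 0.01 ± 0.85 (limma adjusted p = 0.994), while Alas2 gave -0.65 ± 0.53 (limma adjusted p = 0.307). Without control oligo replicate 1, 3 of 5 were called higher (Hba-a1 1.82, Hba-a2 1.86 and Hbb-bs 1.48, limma adjusted p = 0.0124, 0.0105 and 0.0238), where 48.5% of all genes were called higher. After median-ratio scaling, which removes the shift of the median gene, Hba-a1 was at 0.17, Hba-a2 at 0.21, Hbb-bs at -0.23, Hbb-bt at -0.64 and Alas2 at -1.09. With this scaling 0 of 5 members were called, where 26.3% of all genes were higher and 29.0% lower.

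Knockdown and sham gave the largest positive alpha globin values, in a comparison that shares the sham libraries with the previous one. limma called 0 of 5 members, also at an unadjusted p under 0.05, where 65.3% of all genes were called (52.7% higher and 12.5% lower). Hba-a1 had a log2 change of 1.66 ± 0.83 (SE, limma adjusted p = 0.111) and Hba-a2 of 1.66 ± 0.84 (limma adjusted p = 0.114). The values were 1.25 ± 0.79 (limma adjusted p = 0.196) for Hbb-bs, 0.80 ± 0.84 (limma adjusted p = 0.423) for Hbb-bt and 0.23 ± 0.57 (limma adjusted p = 0.733) for Alas2. Knockdown replicate 4 decided this result. Without it the 4 globins were called higher, with log2 changes of 1.88 to 2.76 and limma adjusted p from 0.000195 to 0.00184, where 57.5% of all genes were called higher and 13.8% lower, and Alas2 was not (0.87, limma adjusted p = 0.0751). After median-ratio scaling of the libraries compared, the changes were 0.96 for Hba-a1, 0.95 for Hba-a2, 0.54 for Hbb-bs, 0.09 for Hbb-bt and -0.32 for Alas2, and 0 of 5 were called where 23.0% of all genes were higher and 26.8% lower.

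**Figure D4:**
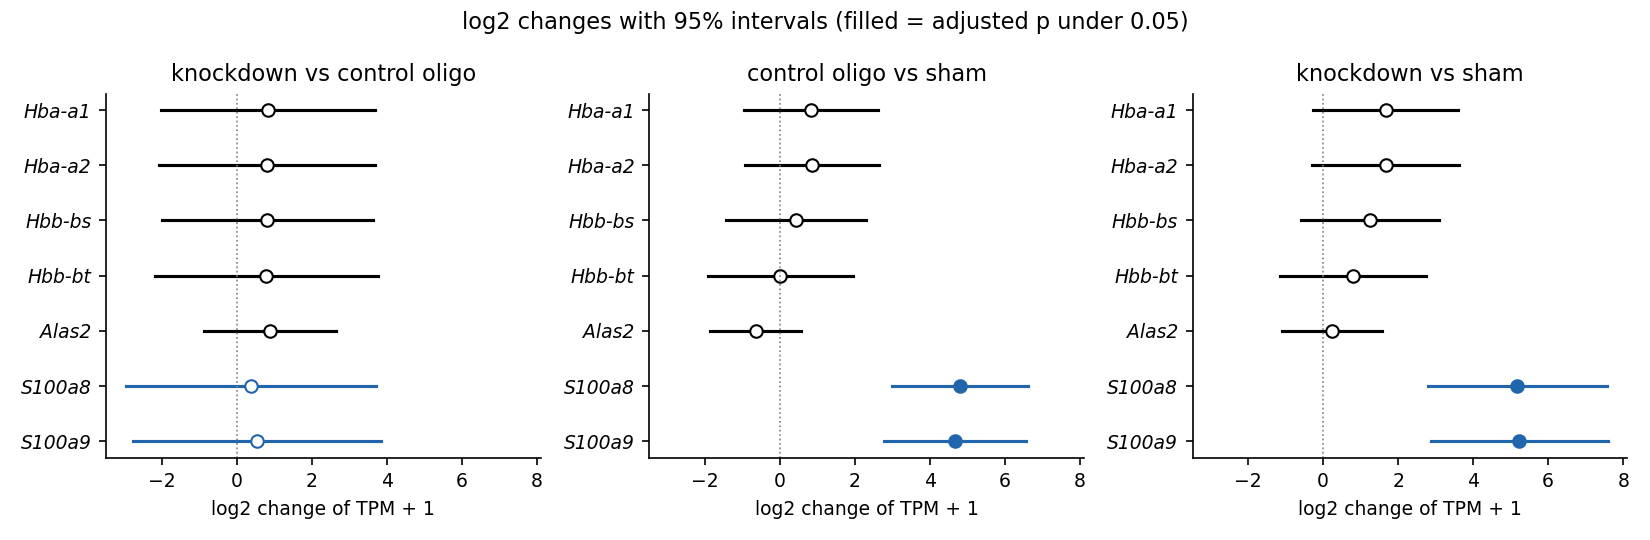
log2 changes of TPM + 1 (x) with 95% intervals for the 5 hemoglobin genes (black) and the S100 genes (blue) in the 3 comparisons; filled points have a limma adjusted p under 0.05. All 15 hemoglobin intervals cross 0, while the S100 genes stand at 4.67 to 5.23 against sham.

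The ratio of alpha to beta globin and the share of Hbb-bt in beta globin did not overlap between the stroke and sham libraries, while the share of Hba-a1 in alpha globin did. The ratio of alpha to beta globin was 1.297, 1.32 and 1.16 in knockdown replicates 2, 3 and 4, 1.40, 1.11 and 1.27 in control oligo replicates 1, 2 and 3, and 0.957, 0.762 and 0.872 in sham replicates 1, 2 and 3. Each of the 6 MCAO libraries was above each sham library, and the means were 1.26 ± 0.087 in knockdown, 1.26 ± 0.147 in control oligo and 0.864 ± 0.098 in sham (SD, n = 3). Hba-a1 held 45.5 to 46.3% of alpha globin in knockdown, 45.0 to 45.4% in control oligo and 45.5 to 46.3% in sham libraries. Hbb-bt held 26.1, 25.8 and 22.6% of beta globin in knockdown, 23.0, 27.0 and 25.1% in control oligo, and 30.1, 32.0 and 31.1% in sham libraries, again without overlap between MCAO and sham.

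Alas2 was lower relative to the globins in stroke libraries. Per 1000 TPM of globins it was 2.93, 3.53 and 5.16 TPM in knockdown, 1.98, 3.50 and 2.18 TPM in control oligo, and 9.35, 9.42 and 7.04 TPM in sham libraries. The knockdown and control oligo values overlapped, and sham lay above both. These ratios are free of library scaling, but the sham libraries also differ in read length, RNA classes, data set and oligo injection. The part of these in the ratios cannot be told apart from that of stroke.

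**Figure D5:**
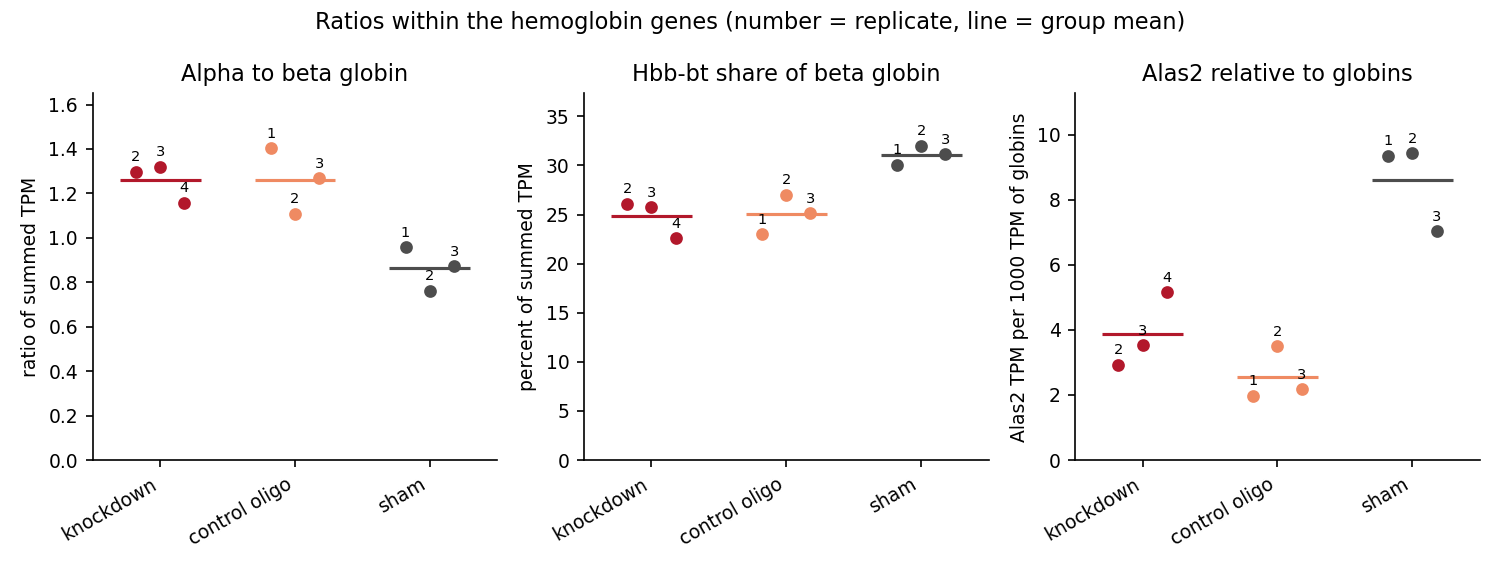
Ratio of alpha to beta globin, Hbb-bt as a percent of beta globin, and Alas2 TPM per 1000 TPM of globins (y) in the knockdown, control oligo and sham libraries; points are libraries numbered by replicate, and lines are group means. Sham libraries, at 0.762 to 0.957, lie below all MCAO libraries in the first panel, and above all of them in the other two.

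Of 25 red cell and erythroid genes in the tables, 14 stayed under 1 TPM in every library and 11 reached 1 TPM or more in at least 1 library. Rhag, Hemgn and Car1 were at 0 in all 9, and no library exceeded 0.183 TPM for Slc4a1 (the anion exchanger band 3), 0.113 for Epb42, 0.477 for Klf1 or 0.157 for Gata1. The erythroid genes that passed the filter are also expressed by other cells, and their sum was 313 to 389 TPM in knockdown, 339 to 364 TPM in control oligo and 232 to 245 TPM in sham libraries for the whole list. Of the 9 kept, 5 rose in control oligo and 5 in knockdown against sham, and 0 fell, close to the 52.6% and 52.7% of all genes called higher. After scaling 2 rose and 2 fell in control oligo, where 26.3% of all genes rose and 29.0% fell. In knockdown 2 rose and 1 fell, where 23.0% of all genes rose and 26.8% fell. Without knockdown replicate 4, 7 rose in knockdown, where 57.5% of all genes did, and without control oligo replicate 1, 3 rose in control oligo, where 48.5% did. Examples are Bpgm, which makes 2,3-bisphosphoglycerate, at 1.29 in control oligo (limma adjusted p = 6.73e-05) and 1.33 in knockdown (limma adjusted p = 0.000604), and Epor, the erythropoietin receptor, at 1.63 (limma adjusted p = 6.92e-05) and 1.71 (limma adjusted p = 0.00121).

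Other globins did not follow the hemoglobin genes. The embryonic Hba-x and Hbb-bh1 were at 0 in all libraries, as were Hbb-bh0, Hbb-bh2 and Hbb-bh3, and Hbb-y did not exceed 0.339 TPM. Of 4 other globins kept, 4 rose in control oligo against sham and 3 in knockdown, where 52.6% and 52.7% of all genes were called higher. Without knockdown replicate 4, 2 rose in knockdown, where 57.5% of all genes did. After scaling 3 rose in control oligo and 2 in knockdown, where 26.3% and 23.0% of all genes did. Cygb (cytoglobin) was at 49.2, 35.8 and 25.4 TPM in knockdown, 32.0, 32.2 and 32.5 TPM in control oligo, and 14.6, 14.3 and 13.9 TPM in sham libraries. Its change was 1.12 ± 0.13 (SE, limma adjusted p = 0.000147) in control oligo and 1.26 ± 0.22 (limma adjusted p = 0.00181) in knockdown. Mb (myoglobin) rose by 1.39 (limma adjusted p = 0.000390) in control oligo and 1.43 (limma adjusted p = 0.000380) in knockdown, with levels of 1.87 to 2.37 TPM in knockdown, 1.58 to 2.78 TPM in control oligo and 0.0683 to 0.324 TPM in sham libraries. Ngb, the neuronal neuroglobin, rose by 0.71 in control oligo (limma adjusted p = 0.0142), but was at 0.21 after scaling (limma adjusted p = 0.401). Its value in knockdown was 0.26 (limma adjusted p = 0.364).

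Heme synthesis genes outside the list of members moved little beyond the shift of the median gene. Of 13 kept, 10 rose and 0 fell in control oligo against sham, and 12 rose and 0 fell in knockdown. Of all genes, 52.6% and 52.7% were called higher, so both counts lie above that share. The median changes of the list were 0.68 and 0.76, beside 0.56 and 0.61 for all genes. After median-ratio scaling 3 rose and 1 fell in control oligo, where 26.3% of all genes rose and 29.0% fell. In knockdown 1 rose and 1 fell, where 23.0% of all genes rose and 26.8% fell. Slc25a38, a mitochondrial glycine carrier, rose by 1.04 (limma adjusted p = 0.000648) in control oligo and 1.40 (limma adjusted p = 0.000904) in knockdown, and Slc25a37 (mitoferrin-1, which brings iron into mitochondria) by 1.05 (limma adjusted p = 0.00328) and 1.13 (limma adjusted p = 0.00285). Summed over the list, levels were 292 to 301 TPM in knockdown, 263 to 294 TPM in control oligo and 165 to 182 TPM in sham, without the wide spread of Alas2.

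Most genes kept that clear heme and hemoglobin rose in each stroke group. Of 12 kept, 11 rose and 0 fell in control oligo against sham, and 8 rose and 0 fell in knockdown, where 52.6% and 52.7% of all genes were called higher. After scaling 7 rose and 0 fell in control oligo, and 6 rose and 0 fell in knockdown, where 26.3% and 23.0% of all genes rose. Without knockdown replicate 4, 9 rose and 1 fell in knockdown, where 57.5% of all genes were higher and 13.8% lower. The level of Hmox1, the heme oxygenase that stress induces, was 124, 112 and 630 TPM in knockdown, 81.3, 103 and 86.7 TPM in control oligo, and 2.57, 2.43 and 2.02 TPM in sham libraries. It rose by 4.77 ± 0.16 (SE, limma adjusted p = 1.56e-07) in control oligo and 5.96 ± 0.59 (limma adjusted p = 0.000123) in knockdown, or 5.15 without knockdown replicate 4. Among the control oligo libraries Hmox1 did not have the wide range of the globins. Fth1, the ferritin heavy chain that stores iron, rose by 2.90 (limma adjusted p = 5.46e-06) and 3.24 (limma adjusted p = 0.000187), and Slc48a1, a heme transporter, by 1.21 (limma adjusted p = 0.000107) and 1.29 (limma adjusted p = 0.000133). Hp (haptoglobin, which binds free hemoglobin and is also made by neutrophils) was at 2.29, 2.11 and 205 TPM in knockdown, 13.2, 0.887 and 5.13 TPM in control oligo, and 0, 0.234 and 0.198 TPM in sham libraries.

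Of the neutrophil list, which holds S100a8 and S100a9, 12 of 18 genes were kept. All 12 rose in control oligo against sham, where 52.6% of all genes were called higher, and 11 rose after scaling, where 26.3% were. In knockdown 6 of 12 rose, close to the 52.7% of all genes, and 4 rose after scaling, where 23.0% of all genes did. In knockdown without replicate 4, 10 rose, where 57.5% of all genes did. Their sum over the list was 86.7, 101 and 1652 TPM in knockdown, 379, 40.1 and 361 TPM in control oligo, and 4.90, 9.33 and 3.37 TPM in sham libraries. Retnlg, expressed by neutrophils, rose by 4.25 in knockdown (limma adjusted p = 0.00185, and 3.22 without knockdown replicate 4), and Il1r2, a decoy receptor for interleukin-1, by 2.82 in control oligo (limma adjusted p = 0.000413). Mpo and Elane, granule genes transcribed early in neutrophil maturation, stayed at or under 0.899 and 0.114 TPM. Of 4 platelet genes kept, 3 rose in each stroke group against sham (after scaling 0 rose, and 1 fell in control oligo), among them Pf4 (platelet factor 4) by 1.43 (limma adjusted p = 0.00791) in control oligo and 2.02 (limma adjusted p = 0.0421) in knockdown. The Pf4 value in knockdown was 1.04 without replicate 4 (limma adjusted p = 0.00899). Of 12 endothelial genes, 5 rose and 2 fell in control oligo against sham (3 and 5 after scaling), and 5 rose and 0 fell in knockdown (3 and 1 after scaling, 6 and 3 without knockdown replicate 4). Beside these platelet and endothelial counts, 52.6% and 52.7% of all genes were called higher, and 12.8% and 12.5% lower. After scaling 26.3% and 23.0% were higher, and 29.0% and 26.8% lower. Without knockdown replicate 4, 57.5% were higher and 13.8% lower in knockdown. The part of neutrophil, platelet and endothelial genes in the globin values was not tested.

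Between knockdown and control oligo, limma called 0 of the 100 genes kept from all lists, where 0.0117% of all genes tested were called. An unadjusted p under 0.05 was found for 2 of the 100, against 321 of all 17080 genes. The 2 were Hbq1a, a theta-globin gene, at -0.49 ± 0.18 (SE), and Gja1, an astrocyte gap junction gene, at -0.50 ± 0.21, both with a limma adjusted p of 1. Hbq1a stayed under an unadjusted 0.05 without knockdown replicate 4, without control oligo replicate 1 and after scaling. Gja1 did not in any of these settings.

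The genes most alike to the globin sum were named by Pearson's r of log2(TPM + 1), as a description. Sham libraries differ from MCAO libraries in data set and makeup, so r over 9 libraries also includes that difference. Over 9 libraries the genes most alike were Chid1 (0.976), Zdhhc24 (0.959), Suv39h2 (0.951), Gm22540 (0.949) and Cbwd1 (0.914), of 16270 genes. Over the 6 MCAO libraries they were Cnot8 (0.996), Lyrm7 (0.995), Chchd3 (0.994), Chid1 (0.992) and Abl1 (0.991), of 16166 genes. These 5 MCAO genes spanned 1.12 to 1.89 times from the lowest to the highest MCAO library, against 18.4 to 22.0 times for the single globins.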

How the data were processed

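Per the labels' protocols, poly(A) libraries of the knockdown and control oligo groups were made with a stranded kit and sequenced as pairs. For sham, the kit is not given in the sources used. Per the submitters' processing notes, HISAT2 2.0 and StringTie 1.3 were used with GRCm38/mm10 (StringTie 1.3.4d per the file headers). The deposited tables give TPM, FPKM and coverage per transcript as attributes. TPM of all transcripts of a gene ID were added up, and read numbers were estimated from the deposited coverage. The design had foreseen edgeR only for counts, which are not used here.

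Genes with TPM of at least 1 in at least 3 of 9 libraries were kept (17080). For each pair of groups, only the 6 libraries concerned entered limma 3.58.1 in R 4.3.3, with a trended prior variance and log2(TPM + 1) as the value, and a gene was called at a Benjamini-Hochberg adjusted p under 0.05. Fold changes on this scale understate changes of low genes. The fit was tested on simulated data. Python 3.11.15, pandas 2.3.3, numpy 2.4.6, scipy 1.17.1 and matplotlib 3.10.9 were used.

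Members and the 16 lists were chosen with earlier results of these data known. Named genes are the members, S100a8 and S100a9, up to 4 genes of smallest p per list and comparison, and the 5 genes most alike to the globin sum. Other list genes given at or near 0, and Hp, Mpo and Elane, were named after their values were seen. The labels do not say which animal gave which library, so p-values measure the spread between these libraries. Alternatives were another pseudocount, no filter, FPKM, median-ratio scaling, TPM over protein-coding genes, 1 fit of all libraries, a replicate block and leaving out each library. Without knockdown replicate 4 and with scaling, list counts were added after seeing the data.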

Additional observations from a re-analysis of the deposited data

How the results depend on the processing

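Calls of members changed in 3 settings. Against sham, 3 members were called higher in control oligo without control oligo replicate 1 (lowest and highest over the libraries left out, 0 and 3), and 4 in knockdown without knockdown replicate 4 (0 and 4). The replicate block also gave 4 in knockdown against sham, but it uses only replicates 2 and 3 and so leaves out knockdown replicate 4 as well. Between knockdown and control oligo, 0 members were called in each of the 13 alternatives. With the replicate block, here too only replicates 2 and 3 of each group, the 5 had unadjusted p from 0.0234 to 0.0288 (limma adjusted p = 0.858). The share of all genes with an unadjusted p this low in that fit is not given here. The 5 members varied together over the MCAO libraries, so these p-values are not separate results, and no knockdown effect is read from them. Same-numbered libraries deviated together with r of 0.231 and 0.0743 between knockdown and control oligo, -0.0304, -0.071 and 0.116 between control oligo and sham, and -0.0597 and 0.0686 between knockdown and sham, so the numbers were not taken to pair animals.

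Directions of uncalled changes turned as follows, and the cause was not tested. Between knockdown and control oligo, leaving out control oligo replicate 1 gave -0.23 (Hbb-bs), -0.19 (Hba-a2), -0.15 (Hba-a1) and -0.32 (Hbb-bt), while leaving out knockdown replicate 4 gave the highest values, 1.83, 1.89, 1.92 and 1.87 in the same order. Between control oligo and sham, Hbb-bt was at -0.0067 with a pseudocount of 0.1, -0.56 in FPKM, -0.64 scaled, -0.80 over protein-coding genes, and -0.84, -0.36 and -0.26 without control oligo replicate 3, sham replicate 3 and control oligo replicate 2. Hbb-bs was at -0.16 in FPKM, -0.23 scaled, -0.38 over protein-coding genes and -0.43 without control oligo replicate 3, where Hba-a1 was at -0.035, and without control oligo replicate 1 the highest values were 1.48 (Hbb-bs), 1.82 (Hba-a1) and 1.12 (Hbb-bt). Between knockdown and sham, Alas2 was at -0.21 in FPKM, -0.32 scaled, -0.56 over protein-coding genes, -0.15 without sham replicate 3 and -0.27 without knockdown replicate 3 (highest over the libraries left out, 0.868, without knockdown replicate 4; 1.01 with the replicate block), and Hbb-bt was at -0.095 over protein-coding genes. The sham mean of summed globins was 1393 over protein-coding genes. Correlations with S100 genes were -0.52 to -0.43 after scaling (adjusted exact permutation p = 0.393).

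With 3 libraries per group and globin SDs near 2 log2 units in the stroke groups, changes within the intervals above could not be detected.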
